A study of Mus musculus with 6 samples.

Results

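Plasminogen activators and their serpin inhibitors were followed in the mouse retina after optic nerve crush (ONC), as 5 genes taken by symbol from the 35485 genes of the deposited tables: the activators Plat and Plau, the receptor Plaur, and the inhibitors Serpine2 and Serpini1. The retinas came from wild type male C57BL/6 mice at 12 weeks of age. In the ONC group the optic nerve was exposed and squeezed with forceps for 10 seconds at 2 mm behind the eye, and in the sham group the nerve was exposed and left intact. Retinas were taken 2 days later, and each group held 3 samples, each made by combining equal amounts of RNA from 6 retinas of 6 mice. RNA-seq of whole retina gave, for each gene and sample, read counts and RPKM, the reads of a gene scaled to its exon length and to all reads that fell on genes. The spread between samples is therefore a spread between pools and not between single mice, and every p-value below rests on that spread. For a single gene, edgeR takes its estimate of this spread partly from the other genes in the fit. Whole retina is bulk tissue, so fewer cells of a type and less RNA per cell cannot be told apart.

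Plasmin, a broad serine protease of the extracellular space, is cut from the inactive precursor plasminogen by tissue-type plasminogen activator (tPA, the product of Plat) or urokinase (uPA, the product of Plau). The urokinase receptor, encoded by Plaur, holds uPA at the cell surface. Both activators are checked by serpins, suicide inhibitors that trap a protease in a covalent complex. Among these are protease nexin-1 (Serpine2), which blocks thrombin, urokinase, tPA and plasmin, and neuroserpin (Serpini1), a neuronal inhibitor that acts mainly on tPA. In nervous tissue the system is known for work on the extracellular matrix, at synapses and during the growth of axons.

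Exon reads summed over all genes ranged from 17343945 to 18349331 in the sham samples and from 20019818 to 20358008 in the ONC samples. Introns took a smaller share of the reads on genes after ONC, since exons held 70.9% to 76.6% of them in sham and 78.5% to 80.4% in ONC. The defining genes of retina were present in every sample, with a summed RPKM of photoreceptor markers from 17957 to 18681 in sham and from 19672 to 20960 in ONC. The summed RPKM of 8 retinal ganglion cell (RGC) markers was 416 to 435 in sham and 298 to 316 in ONC. For 7 microglia and macrophage markers it was 10.2 to 13.1 in sham and 18.1 to 20.5 in ONC, and for 3 lens markers 3.26 to 20.001 in sham and 21.6 to 27.97 in ONC. Those 4 sums did not overlap between the groups, and no marker in these lists stood at 0 in every sample. The sums of Müller glia and astrocyte, vascular, pigment epithelium, blood and oligodendrocyte markers overlapped.

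The members were tested on their exon reads by the quasi-likelihood test of edgeR, among the 13670 genes whose mean RPKM exceeded 0.3 in sham, in ONC or in both. A gene was called when its adjusted p (Benjamini-Hochberg over all genes tested) was under 0.1 and its fold change was above 1.5. Of the 5 members, 3 passed the RPKM filter, and 1 of these, Plat, was called, as higher in ONC. In the same comparison 1.66% of all tested genes were called, with 0.827% higher and 0.834% lower in ONC, and 6.09% had an adjusted p under 0.1 at any fold change. Without ONC replicate 1 the number of genes called among all those tested went from 227 to 353, and Plat was again the one member called. Plau and Plaur lay under the filter and were tested in a fit of all 17655 genes with an exon read in any sample, where 1.68% of genes were called and neither of them was. In that unfiltered fit the spread came almost wholly from the genes together. The intervals of Plau and Plaur therefore hold little of their own spread between pools.

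Plat encodes tPA, a secreted serine protease that converts plasminogen to plasmin and also cuts receptors at synapses. The gene lies at chr8:22757744-22782848 (GRCm38) and has 2532 exon bases in 14 exons. In the order of the replicate numbers, its exon reads were 204, 190 and 180 in sham, and after ONC they were 473, 436 and 476. On the RPKM scale the levels were 3.51, 3.13 and 2.90 in sham and 7.38, 6.92 and 7.25 in ONC. Every ONC sample lay far above every sham sample, and the samples of a group stood close together. The mean level was 3.18 ± 0.303 RPKM (SD, n = 3) in sham and 7.18 ± 0.238 RPKM (SD, n = 3) in ONC. The log2 fold change was 1.06 (SE 0.13, 95% confidence interval 0.79 to 1.32), a 2.08-fold rise, with an adjusted p of 2.14e-05 in edgeR's quasi-likelihood test. Among the 113 genes called higher in ONC, 55 had a larger fold change than Plat and 27 had a smaller adjusted p. By level, Plat stood above 30.3% of the genes tested in sham and above 48.0% of them in ONC. Plat was called in all 16 alternatives of scaling, filter, test and sample choice, at log2 fold changes from 0.97 to 1.18. The RGC, microglia, photoreceptor and lens marker sums differed between the same samples, and their part in the rise of Plat was not tested.

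**Figure D1:**
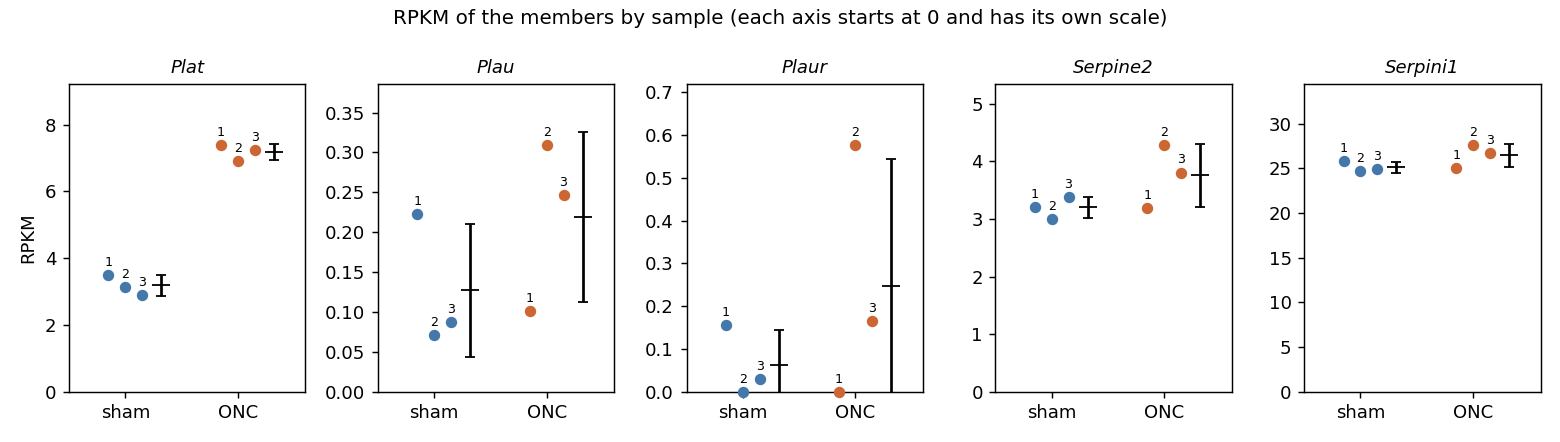
RPKM of each member (y axis, from 0, with a scale of its own in each panel) in the 3 sham samples (blue) and 3 ONC samples (orange), numbered by replicate, with the mean and SD as a black bar. The ONC samples of Plat, at 6.92 to 7.38, all lie above the sham samples, at 2.90 to 3.51, while the groups overlap in the other 4 panels.

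The urokinase arm was near the limit of detection in these retinas. Plau, the gene of uPA, lies at chr14:20836662-20843388 (GRCm38) with 2343 exon bases in 11 exons, and had 12, 4 and 5 exon reads in the sham samples and 6, 18 and 15 in the ONC samples. Its levels were 0.223, 0.071 and 0.087 RPKM in sham and 0.101, 0.309 and 0.247 RPKM in ONC, so that the highest sham sample lay between the ONC samples. In the unfiltered fit the log2 fold change of Plau was 0.66 (SE 0.87, 95% confidence interval -1.04 to 2.36, adjusted p = 0.776 in edgeR's quasi-likelihood test). Without ONC replicate 2 it was 0.35, and without sham replicate 1 it was 1.28. With so few reads, a change of Plau in either direction by the sizes in that interval was not detectable at this depth.

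Plaur, the membrane-anchored receptor that concentrates urokinase on the cell surface, lies at chr7:24462500-24475873 (GRCm38) with 1396 exon bases in 7 exons. It had 5, 0 and 1 exon reads in the sham samples and 0, 20 and 6 in the ONC samples. In RPKM this came to 0.156, 0 and 0.029 in sham and to 0, 0.576 and 0.166 in ONC. ONC replicate 2 stood highest and ONC replicate 1 had no read, so the groups overlapped. A count of 0 allows up to 3 reads, or a level of up to 0.0897 RPKM in sham replicate 2 and 0.0849 RPKM in ONC replicate 1, by counting error only. The log2 fold change in the unfiltered fit was 1.83 (SE 1.19, 95% confidence interval -0.51 to 4.17, adjusted p = 0.511 in edgeR's quasi-likelihood test). It was 0.32 without ONC replicate 2 and 3.61 without sham replicate 1, so the value turned on single samples. The fitted value of a gene with samples at 0 also depends on the constant that the fit adds, and it sets no bound.

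Serpine2 encodes protease nexin-1, a secreted serpin of glia and other cells that inactivates thrombin, urokinase, tPA and plasmin. It lies at chr1:79794321-79858665 (GRCm38) with 2055 exon bases in 9 exons, and had 152, 148 and 170 exon reads in sham and 166, 219 and 203 in ONC. The levels were 3.22, 3.01 and 3.38 RPKM in sham and 3.19, 4.28 and 3.81 RPKM in ONC. ONC replicate 1 lay within the sham samples and the other ONC samples lay above them. The log2 fold change was 0.10 (SE 0.17, 95% confidence interval -0.25 to 0.45, adjusted p = 0.807 in edgeR's quasi-likelihood test). Without ONC replicate 1 it was 0.19 and without ONC replicate 2 it was 0.02.

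Serpini1 encodes neuroserpin, which neurons secrete and which inhibits tPA. It lies at chr3:75557533-75642523 (GRCm38) with 3133 exon bases in 9 exons, and the nearest gene in the tables, Pdcd10, begins 734 bases away. Its exon reads were 1862, 1851 and 1915 in sham and 1988, 2152 and 2174 in ONC, and its levels were 25.9, 24.7 and 25.0 RPKM in sham and 25.1, 27.6 and 26.8 RPKM in ONC. The groups overlapped on the RPKM scale. The log2 fold change was -0.05 (SE 0.06, 95% confidence interval -0.19 to 0.09, adjusted p = 0.749 in edgeR's quasi-likelihood test), and the interval holds no rise or fall near 1.5-fold. Its sign turned when reads were divided by all reads on genes, introns included, as in the RPKM values, where the log2 fold change was 0.073. That scaling moved the median log2 fold change of all tested genes from 0.01 to 0.13, so on it Serpini1 still lay below the typical gene. The exon reads of the 5 members were all uniquely mapped, and no other gene in the tables overlapped a member.

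Sequence just before the annotated start was at hand for Plaur, Serpine2 and Serpini1, the member with the lowest mean level in sham, the broad inhibitor of intermediate level and the member with the highest level. The 250 bases before each RefSeq start are shown so that these levels can be read beside the sequence (RefSeq, GRCm38.p6). For Plaur and Serpini1 the RefSeq start lies ahead of the gene start given above. Plaur is at chr7:24462233-24462482 on the plus strand, Serpine2 at chr1:79858666-79858915 on the minus strand and Serpini1 at chr3:75557243-75557492 on the plus strand, each read 5′ to 3′ along its gene. Capitals mark GC boxes (GGGCGG) and the AP-1 site (TGANTCA), each sought on both strands, where GC boxes may overlap one another.
Plaur: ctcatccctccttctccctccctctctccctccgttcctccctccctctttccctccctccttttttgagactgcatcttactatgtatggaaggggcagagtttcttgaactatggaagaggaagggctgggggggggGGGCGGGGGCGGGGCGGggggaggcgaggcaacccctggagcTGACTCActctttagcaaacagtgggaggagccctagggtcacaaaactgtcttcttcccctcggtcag
Serpine2: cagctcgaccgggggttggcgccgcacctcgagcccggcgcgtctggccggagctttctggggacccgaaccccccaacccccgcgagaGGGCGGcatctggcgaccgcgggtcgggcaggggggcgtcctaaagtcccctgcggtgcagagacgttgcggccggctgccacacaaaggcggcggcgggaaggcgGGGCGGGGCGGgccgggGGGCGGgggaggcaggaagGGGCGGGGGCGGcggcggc
Serpini1: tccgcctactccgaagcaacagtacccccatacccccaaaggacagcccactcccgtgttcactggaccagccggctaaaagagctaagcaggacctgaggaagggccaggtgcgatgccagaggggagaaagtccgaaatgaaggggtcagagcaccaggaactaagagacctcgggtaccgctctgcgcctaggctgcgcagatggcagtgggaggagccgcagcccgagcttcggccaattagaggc
Plaur had 1 AP-1 site, which began at position -69 from the RefSeq start, and 3 GC boxes. Serpine2 had 6 GC boxes in a window of 78.8% GC, and Serpini1 had neither motif in a window of 61.2% GC, beside a median of 52.4% GC over 32851 windows. Of all windows of this length, 6.75% held the AP-1 letters and 32.7% a GC box. The letters of a cAMP response element (TGACGTCA) and of a TATA box (TATAAA) were in none of the 3 windows, and were in 1.55% and 12.4% of all windows. These are matches of letters, and binding was not measured.

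Side by side on the RPKM scale, which takes account of gene length, the order of the members changed between the groups at the place of Plat. In sham, Serpini1 stood first at 25.2 ± 0.617 RPKM (SD, n = 3), followed by Serpine2 at 3.20 ± 0.188 RPKM (SD, n = 3) and Plat at 3.18 ± 0.303 RPKM (SD, n = 3), whose samples overlapped. Plau at 0.127 ± 0.0835 RPKM (SD, n = 3) and Plaur at 0.0617 ± 0.0830 RPKM (SD, n = 3) came last and overlapped too. In ONC, Serpini1 again stood first at 26.5 ± 1.29 RPKM (SD, n = 3). Plat now stood clear of Serpine2, which had 3.76 ± 0.547 RPKM (SD, n = 3). Plaur at 0.247 ± 0.296 RPKM (SD, n = 3) and Plau at 0.219 ± 0.107 RPKM (SD, n = 3) overlapped at the bottom. All other neighbours in either order differed by more than the range of their samples.

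The ratio of activator to inhibitor within a sample does not depend on the scaling between samples. It is built from the same exon reads as the tests above, so it is not an independent measurement of the change in Plat. The ratio of Plat to Serpine2 RPKM was 1.09, 1.04 and 0.859 in the sham samples and 2.31, 1.62 and 1.90 in the ONC samples. Transcripts of tPA and protease nexin-1 were thus near parity in sham, and tPA was ahead in every ONC sample. The ratio was 1.94-fold higher in ONC (log2 difference 0.96, exact permutation test, two-sided p = 0.1, adjusted p = 0.15 over 3 ratios). For Plat to Serpini1 the ratio was 0.136, 0.127 and 0.116 in sham and 0.294, 0.251 and 0.271 in ONC. It was 2.15-fold higher in ONC (log2 difference 1.11, exact permutation test, two-sided p = 0.1, adjusted p = 0.15), while neuroserpin transcripts still exceeded those of tPA in every sample. In both ratios the 3 ONC samples lay above the 3 sham samples, and 0.1 is the smallest p that 3 samples against 3 allow. The ratio of Plau to Serpine2 was 0.0693, 0.0236 and 0.0257 in sham and 0.0316, 0.0722 and 0.0649 in ONC, which overlapped (log2 difference 0.60, exact permutation test, two-sided p = 0.3, adjusted p = 0.3). The ratio of Plau to Plaur was not computed, because Plaur had no read in 2 samples.

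**Figure D2:**
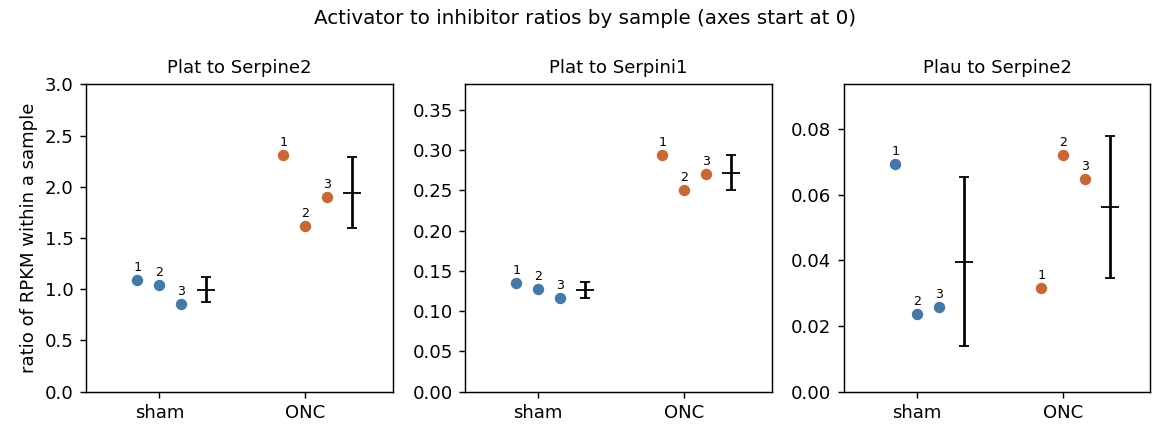
Ratio of the RPKM of an activator to that of an inhibitor within each sample (y axis, no unit, from 0), for 3 sham (blue) and 3 ONC (orange) samples numbered by replicate, with the mean and SD as a black bar. Plat to Serpine2 lies at 0.859 to 1.09 in sham and at 1.62 to 2.31 in ONC, Plat to Serpini1 shows the same separation, and Plau to Serpine2 overlaps.

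Reads that span a junction between exons come from spliced RNA. They are a part of the exon reads tested above, so they are not an independent measurement. Plat had 137, 121 and 119 such reads in sham and 307, 249 and 304 in ONC. Its log2 fold change over these reads was 0.98 (SE 0.16, adjusted p = 2.93e-04 in edgeR's quasi-likelihood test), and 1.16% of 13180 genes were called on them. Serpine2 had 97, 54 and 81 in sham and 117, 120 and 131 in ONC, at a log2 fold change of 0.45 (SE 0.23, 95% confidence interval -0.01 to 0.91) that missed the threshold (adjusted p = 0.418, edgeR's quasi-likelihood test). Serpini1 had 764, 781 and 767 in sham and 732, 789 and 778 in ONC, at a log2 fold change of -0.22 (SE 0.09, adjusted p = 0.271, edgeR's quasi-likelihood test).

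As a share of a gene's own exon reads, the junction-spanning reads of Serpini1 made up 41.0%, 42.2% and 40.1% in sham and 36.8%, 36.7% and 35.8% in ONC. Each ONC share lay below each sham share, by 4.67 percentage points between the means (two-sided exact permutation p = 0.1, the lowest possible here). Of the 10633 genes with at least 100 exon reads in every sample, 5.66% had every ONC share below every sham share. Serpine2 had shares of 63.8%, 36.5% and 47.6% in sham and 70.5%, 54.8% and 64.5% in ONC, which overlapped (exact permutation test, two-sided p = 0.2). Its sham samples lay further apart than counting error alone would place them, since the Wilson 95% interval was 55.9% to 71.0% in sham replicate 1 and 29.2% to 44.5% in sham replicate 2. The shares of Plat were 67.2%, 63.7% and 66.1% in sham and 64.9%, 57.1% and 63.9% in ONC and overlapped (exact permutation test, two-sided p = 0.3). Over all genes the share was 42.0% to 43.1% in every sample. Reads from amplified libraries are not independent molecules, so the intervals cover counting error only.

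Intron reads come largely from RNA not yet spliced, and Plat had few of them. They numbered 12, 14 and 25 in sham and 0, 5 and 19 in ONC. ONC replicate 3 lay among the sham samples and the other ONC samples lay below them. The log2 fold change of intron reads was -1.13 (SE 0.84, 95% confidence interval -2.92 to 0.67, adjusted p = 0.528 in edgeR's quasi-likelihood test), and it ranged from -2.60 to -0.59 when single samples were left out. In a joint fit of exon and intron reads, the exon change of Plat exceeded its intron change by 2.26 on the log2 scale (SE 0.73), with an unadjusted p of 0.0084 and an adjusted p of 0.237 in edgeR's quasi-likelihood test. In that fit 0.0352% of 11365 genes were called, which is 4 genes, and Plat was not among them.

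Serpini1 had 82, 68 and 137 intron reads in sham and 50, 52 and 58 in ONC, with every ONC count below every sham count. Its log2 fold change on intron reads was -0.79 (SE 0.30, 95% confidence interval -1.42 to -0.16), but with an adjusted p of 0.187 in edgeR's quasi-likelihood test it was not called. Without sham replicate 3, the sample with the lowest exon share of all 6, it was -0.50. The exon change of Serpini1 exceeded the intron change by 0.70 (adjusted p = 0.262, edgeR's quasi-likelihood test). Serpine2 had 9, 6 and 25 intron reads in sham and 3, 22 and 15 in ONC, with wide overlap and a log2 fold change of 0.02 (adjusted p = 0.995, edgeR's quasi-likelihood test). Plau had no intron read in any sample, and Plaur had between 0 and 8. Over all genes 2.61% were called on intron reads, 349 genes in number, and that count rested on single samples. By edgeR's quasi-likelihood test it was 0 without ONC replicate 2 (1348 genes at an unadjusted p under 0.05), 0 without sham replicate 2 (2111 genes), 1 without ONC replicate 3, 86 without sham replicate 3 and 878 without sham replicate 1.

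**Figure D3:**
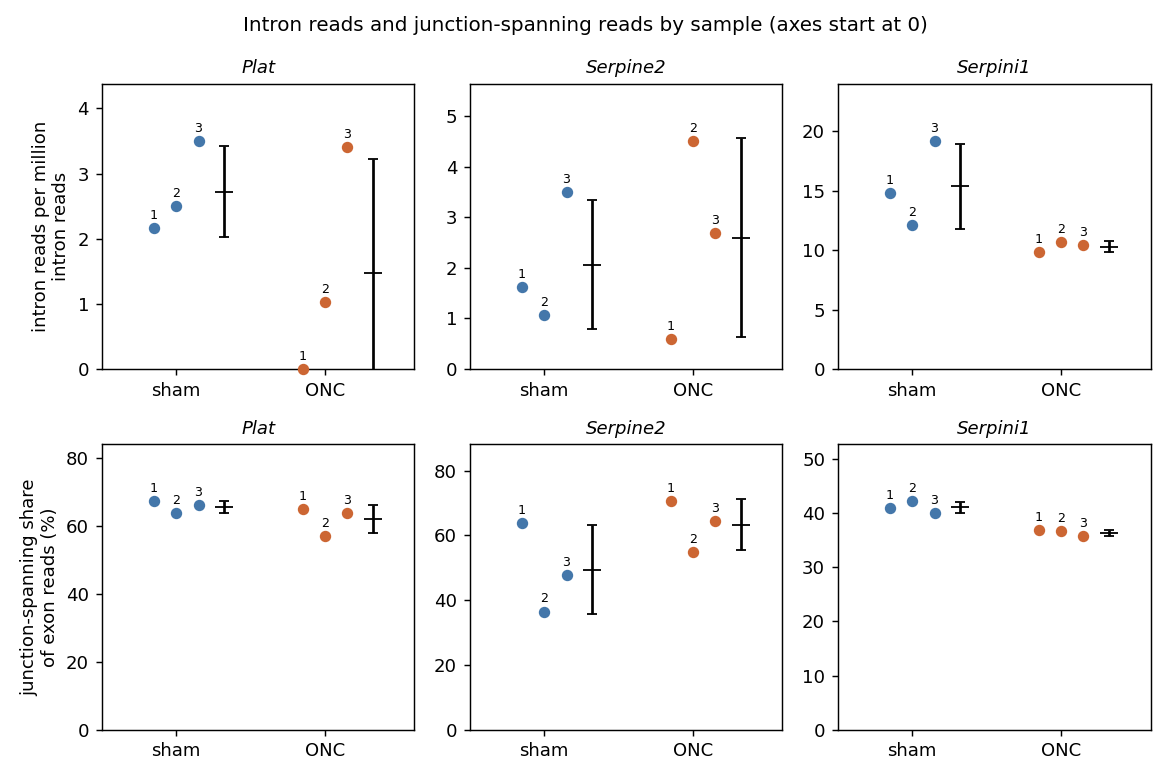
Top, intron reads scaled to all intron reads of the sample (y axis, CPM), and bottom, junction-spanning reads as a percentage of exon reads, for Plat, Serpine2 and Serpini1 in 3 sham (blue) and 3 ONC (orange) samples numbered by replicate, with the mean and SD as a black bar and y axes from 0. The ONC samples of Serpini1 lie below the sham samples in both rows, while Plat and Serpine2 overlap in both. Such a separation held for 5.66% of genes in the junction shares and was not counted over all genes for intron reads.

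The rest of the plasminogen system was read from 41 genes in lists by role, of which 37 had a read and 30 passed the RPKM filter. Of the 30, 1 was called higher and 3 were called lower in ONC, while 1.66% of all genes tested were called. The median log2 fold change of the 30 was -0.0038, beside 0.01 over all genes tested. Plg, the gene of plasminogen itself, had no exon read in any sham sample and 1, 3 and 1 in the ONC samples, and it was not tested. In the list of the zymogen and the inhibitors, 3 of 8 genes were tested and 0 were called by edgeR, by DESeq2 or by limma, with 1 at an unadjusted p under 0.05 in edgeR and DESeq2. Serping1, the C1 inhibitor and the most abundant of this list, overlapped between the groups, at a log2 fold change of 0.10 (adjusted p = 0.870, edgeR's quasi-likelihood test).

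Among the 7 tested genes whose products dock plasminogen on cells, Itgam was called higher, and Anxa2 passed the adjusted p but not the fold change. Itgam, an integrin subunit of myeloid cells, had 0.762, 0.464 and 0.506 RPKM in sham and 1.15, 1.11 and 0.939 RPKM in ONC. Its log2 fold change was 0.76 (SE 0.24, adjusted p = 0.0903, edgeR's quasi-likelihood test), and the call was lost in 7 of 15 alternatives, among them without any of the samples other than sham replicate 1. The microglia and macrophage marker sum was higher in the same ONC samples, and its part in this value was not tested. Anxa2, a membrane protein that binds plasminogen and tPA, had 6.55, 7.11 and 5.29 RPKM in sham and 10.0, 9.33 and 8.59 RPKM in ONC, at a log2 fold change of 0.44 (SE 0.14, adjusted p = 0.0883, edgeR's quasi-likelihood test). By the same test the adjusted p of Anxa2 was 0.127 to 0.310 when single samples were left out. With the replicate number as a block it was 0.114, so Anxa2 passed in none of these fits. Eno1, a glycolytic enzyme that also binds plasminogen, was the most abundant of the list and overlapped between the groups (log2 fold change -0.10, adjusted p = 0.369, edgeR's quasi-likelihood test).

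Among the 10 tested receptors that take up activator and serpin complexes or signal from them, Sorl1, a sorting receptor, passed the adjusted p but not the fold change, at a log2 fold change of -0.45 (adjusted p = 0.0449, edgeR's quasi-likelihood test), but ONC replicate 1, at 10.1 RPKM, lay within the sham samples. Without ONC replicate 1, Sorl1 was called, at -0.68. By the same test its adjusted p was 0.0466 without sham replicate 1 and 0.163 to 0.273 without any other single sample. Vldlr, the most abundant of the list and a receptor for reelin and for serpin complexes, had a log2 fold change of -0.06 (adjusted p = 0.584, edgeR's quasi-likelihood test).

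Among 10 tested substrates, Mmp9 and Grin2a were called lower. Mmp9, a secreted gelatinase whose precursor plasmin can activate, had 5.65, 5.20 and 5.31 RPKM in sham and 3.68, 3.56 and 3.45 RPKM in ONC (log2 fold change -0.72, SE 0.12, adjusted p = 9.18e-04, edgeR's quasi-likelihood test). Grin2a, an NMDA receptor subunit, had 1.14, 1.499 and 1.51 RPKM in sham and 0.920, 0.695 and 0.572 RPKM in ONC (log2 fold change -1.05, SE 0.23, adjusted p = 0.0102, edgeR's quasi-likelihood test). On uniquely mapped reads alone, Grin2a was at -0.62 with an adjusted p of 0.344 in edgeR's quasi-likelihood test. The RGC marker sum was lower in the same ONC samples, and its part in these falls was not tested. Grin1, the shared NMDA receptor subunit that tPA is known to cut, was the most abundant of the list, overlapped between the groups and was not called (log2 fold change -0.23, adjusted p = 0.111, edgeR's quasi-likelihood test).

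**Figure D4:**
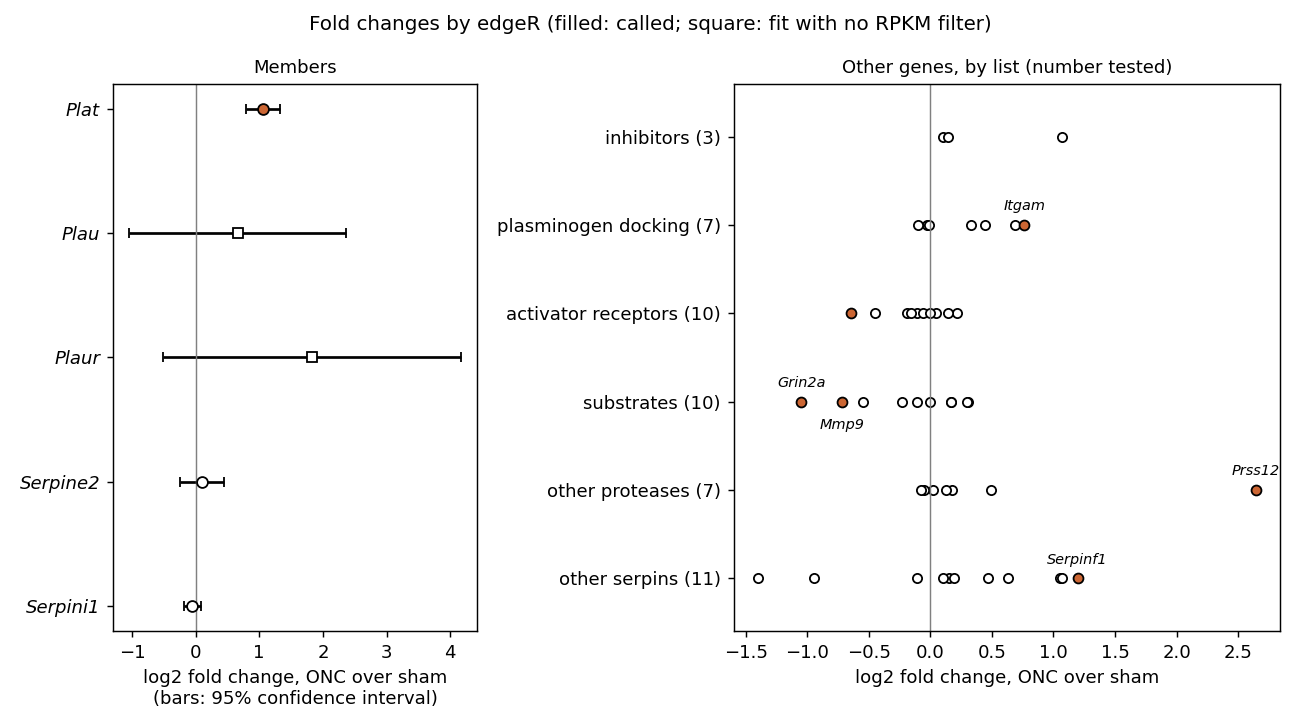
Left, log2 fold change of each member, ONC over sham (x axis), with its 95% confidence interval by edgeR, where filled means called and squares mark the unfiltered fit. Right, log2 fold changes of the tested genes of each list, with called genes filled, and named where the text describes them. Plat is the one member called, at 1.06, while the intervals of Plau and Plaur span 0 widely and the listed genes lie on both sides of 0.

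Serpini1 and Serpine2 belong to a family with 65 other rows named Serpin in the tables, of which 30 had an exon read and 11 were tested, Serping1 among them. Of these 11, 1 was called, Serpinf1, while 1.66% of all genes tested were called. Serpinf1 encodes pigment epithelium-derived factor, a secreted serpin without protease inhibition that is known for neurotrophic action in the retina. It had 1.66, 1.51 and 0.984 RPKM in sham and 3.23, 3.71 and 3.38 RPKM in ONC, with no overlap, at a log2 fold change of 1.20 (SE 0.24, adjusted p = 0.0061, edgeR's quasi-likelihood test). It was called in all 15 alternatives. The summed pigment epithelium markers overlapped between the groups, at 33.1 to 49.4 RPKM in sham and 32.4 to 51.0 RPKM in ONC. The RGC, microglia, photoreceptor and lens marker sums did not overlap. The part of any of these cell types in the rise of Serpinf1 was not tested. Serpina3n, an acute-phase serpin of reactive glia and the most abundant of these 11, overlapped between the groups and had a log2 fold change of 0.47 (adjusted p = 0.218, edgeR's quasi-likelihood test). It was called without ONC replicate 1, at 0.71.

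Of 14 genes for thrombin, its receptors and other extracellular serine proteases, 7 were tested. Of these 7, 1 was called, Prss12, while 1.66% of all genes tested were called. Prss12 encodes neurotrypsin, a protease of synapses that cuts agrin. It had 2, 3 and 9 exon reads in sham and 31, 43 and 30 in ONC, with no overlap, and a log2 fold change of 2.64 (SE 0.60, 95% confidence interval 1.39 to 3.89, adjusted p = 0.0134, edgeR's quasi-likelihood test). The mean level of Prss12 was 0.074 RPKM in sham and 0.526 RPKM in ONC, so it passed the RPKM filter through the ONC group alone. Its call was lost in limma with a pseudocount of 1, at a log2 fold change of 0.50. Prss56, a protease of Müller glia, had 3.66, 4.20 and 3.99 RPKM in sham and 4.98, 6.53 and 6.69 RPKM in ONC, and passed the adjusted p (0.0716, edgeR's quasi-likelihood test) but not the fold change, at a log2 fold change of 0.49. Without ONC replicate 1, Prss56 was called, at 0.60. Without any other single sample its adjusted p was 0.142 to 0.304 by the same test. Htra1, a secreted protease and the most abundant of the list, had a log2 fold change of 0.13 (adjusted p = 0.456, edgeR's quasi-likelihood test).

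The genes whose levels followed those of a member most closely over the 6 samples were found by Pearson's r on log2 TMM-normalized CPM (counts scaled to the reads of each library), as a description in which the 6 points share 2 groups and their libraries. For Plat these were Jun, a transcription factor of the AP-1 family (r = 0.997), Arid5a, an RNA-binding protein (r = 0.997), and Eif2s2, a subunit of a translation initiation factor (r = 0.994), and 149 of the other 13669 genes had an r above 0.95. For Serpine2 they were Etfdh (r = 0.991), Llgl1 (r = 0.990) and Pld4 (r = 0.986), with 32 genes above 0.95. For Serpini1 the nearest were Ptges (r = 0.989) and Fezf1 (r = 0.987), with 19 genes above 0.95. Plau and Plaur were left out of this, since their counts were too low.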

How the data were processed

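Retinal RNA from 3 ONC and 3 sham pools was sequenced by the authors as 100-base read pairs on an Illumina HiSeq instrument, from libraries of a kit that does not mark strand, and mapped with CLC Genomics Workbench. The authors deposited, per gene and sample, read counts on exons, on whole genes and across exon junctions, as all and as uniquely mapped reads, not normalized, with an intact pair counted as 1. The deposited RPKM values are exon reads per kilobase divided by all reads on genes, introns included. Means over each group that stand beside them in the tables were not used. The submitters' processing notes name mm9, but the gene positions in the tables match GRCm38 in RefSeq, and they are given as such. The depth was 17343945 to 20358008 exon reads a sample, and genes with few reads are known only within wide limits.

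Groups and replicate numbers came from the sample labels, which call ONC samples NC. Exon reads were compared with edgeR 4.0.16 in R 4.3.3 (TMM, glmQLFit and glmQLFTest, condition as the only term, two-sided), over genes whose mean RPKM exceeded 0.3 in sham, in ONC or in both. Called genes had a Benjamini-Hochberg adjusted p under 0.1 over all tested genes and a fold change above 1.5, the filter and thresholds of the study. The standard error is the log2 fold change divided by the root of the F statistic. Intron reads are gene reads minus exon reads and went through edgeR's filterByExpr. The exon and intron changes were compared in 1 fit with the sample as a block. Ratios and junction shares were compared by exact two-sided permutation tests. Python 3.11.15, numpy 2.4.6, pandas 2.3.3, scipy 1.17.1 and matplotlib 3.10.9 were used otherwise. The tests were run on simulated data first. Within groups, chi-square per degree of freedom between pools was 4.54 to 13.7, so no library had been deposited in duplicate.

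Alternatives were DESeq2 1.42.0 (size factors in edgeR, and its Wald test), division by all reads on genes, no RPKM filter or a mean above 1, limma 3.58.1 on log2 RPKM with pseudocounts of 0.1 and 1, unique reads, the replicate number as a block, no threshold on fold change and leaving out each sample. Added after seeing the data were the unfiltered fit as the value of Plau and Plaur, the junction-spanning reads, the exon against intron fit and the junction shares. The members and lists were chosen with earlier results of these data known. Named were the members, every listed gene that was called or passed the adjusted p alone, the most abundant gene of each list and the 3 genes most alike each tested member. Plg and the marker lists are named beyond that rule, Plg after its values were seen. Some genes that the rule names are not reported here. Start sequences of Plat and Plau were not analysed here.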

Additional observations from a re-analysis of the deposited data

How the results depend on the processing

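Plat was called in all 16 alternatives, and Plau, Plaur, Serpine2 and Serpini1 were not called in any alternative run on them. The log2 fold change of Serpini1 changed sign with division by all reads on genes (0.073) and in limma with pseudocounts of 0.1 (0.072) and 1 (0.070), under which Eno1 (0.018, 0.019 and 0.019) and Vldlr (0.059, 0.059 and 0.058) did too, while division by all reads on genes moved the median gene to 0.13. Serping1 ranged from -0.10 to 0.33 when single samples were left out. The intron change of Serpine2 changed sign with DESeq2 size factors (-0.014), unique reads (-0.011) and the replicate block (-0.068), and ranged from -0.59 to 0.76 without single samples. The cause of these turns was not tested.

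Of the other plasminogen system genes, 4 were called, against 1 and 0 in limma with pseudocounts of 0.1 and 1 (8 of 30 at an unadjusted p under 0.05 in the latter), and 2 to 5 without single samples, with 2 of them left without sham replicate 3, ONC replicate 2 or ONC replicate 3. Other serpins numbered 1, against 3 with division by all reads on genes, 2 with no filter, 2 in limma with a pseudocount of 0.1, and 1 to 2 without single samples, with 2 without ONC replicate 1. The serine protease list had 1, against 2 with division by all reads on genes, 0 with a mean RPKM above 1 in edgeR, which leaves out Prss12 (1 at an unadjusted p under 0.05), 2 and 0 in limma with pseudocounts of 0.1 and 1 (3 at an unadjusted p under 0.05 in the latter), 2 with any fold change, and 1 to 2 without single samples, with 2 without ONC replicate 1.

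Samples with the same replicate number did not deviate together (correlations -0.047, -0.033 and 0.0026), so the numbers do not pair them. With the replicate block, Plat was at 1.06 (adjusted p = 3.62e-05, edgeR's quasi-likelihood test), and 222 genes were called in all against 227. Depth limited Plau and Plaur most, with 0 to 20 exon reads a sample, and the intron reads of Plat and Serpine2, with 0 to 25.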
